A study of Mus musculus with 40 samples.

Results

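The 3 libraries described here were made from mouse lung organoids named LO, sampled after 8, 11 and 18 days of culture, and they are 3 of the 40 libraries of the series. Their titles give the name and the day. The labels do not spell LO out, and they give no strain, genotype, age, medium or embryonic start stage for these cultures. Another LO library, from day 11 with an addition called DCI, was not used here. The series as a whole grew branching lung organoids from primary epithelial cells of lung tips and sequenced their RNA. Each day has 1 library and no replicate, so no p-value can be given between LO days and no difference can be set against a spread between cultures. A separate table of the series holds 10 organoid libraries with a stated start stage (E9.5 to E14, days of gestation) and culture time, 5 grown for 18 to 32 days and 5 grown for 11 to 13 days, and these were used where a test was needed. All values are TPM, transcript levels corrected for gene length and scaled to the same total in each library, and differences are of log2(TPM + 1), later day minus earlier day.

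The tips of the growing lung hold progenitor cells that express Sox9, Id2 and Etv5 and that later give rise to the alveolar epithelium. Alveolar type 2 (AT2) cells are cuboidal cells that make surfactant, the lipid and protein film that keeps the air spaces open, and they also carry MHC class II and secrete defence proteins. Alveolar type 1 (AT1) cells are flat and form most of the gas exchange surface. Imprinted genes such as Igf2 and H19 are known to be high in fetal tissue and low after birth.

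Some facts about the libraries bear on all that follows. Genes at 1 TPM or more numbered 14418 on day 8, 14094 on day 11 and 13791 on day 18, and the mitochondrial genome took 10.2%, 9.79% and 9.96% of the TPM. Sftpc alone took 1.24%, 3.70% and 10.9%, and because TPM sums to a fixed total, a larger share for it leaves less for the other genes. The median difference of the genes kept was −0.10 between days 11 and 8, −0.14 between days 18 and 11 and −0.26 between days 18 and 8. The Y-linked genes Eif2s3y, Ddx3y, Kdm5d and Uty stood at 43.21, 17.87, 9.12 and 6.55 TPM on day 8 and at 0.11 TPM or less on days 11 and 18. Xist, the RNA of the inactive X chromosome, was at 331.6, 509.36 and 330.41 TPM on days 8, 11 and 18. Y-linked RNA was thus present on day 8 and near 0 on the later days, and the source of the cells and the culture day cannot be told apart between day 8 and the later days.

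The day 18 library also lay unusually close to a library of the other table, organoids from E10.5 tips grown for 18 days. Over the 2280 genes at 50 TPM or more in both, the SD of their log2 ratio was 0.163, against 0.354 for the next closest organoid library and 0.264 for the closest pair among the 10 organoid libraries. Of 10577 genes at 5 TPM or more in either, 286 (2.70%) differed by a log2 of 1 or more. The labels do not say whether both came from 1 culture. Counts from the 10 organoid libraries, and genes that passed the test there, are therefore given with and without the E10.5 library of 18 days.

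Of 55286 genes in the table, 11716 reached 5 TPM in at least 1 LO library, 9606 of them in all 3 and 1110 in only 1. A gene was counted as higher or lower when log2(TPM + 1) differed by 1 or more. At the edge of the filter, Lrrc27 and Cdk20 entered with a highest value of 5 TPM, and Zfp677 missed it at 4.99 TPM. Day 11 differed little from day 8, with 292 genes higher (2.49% of those kept) and 333 lower (2.84%). Day 18 differed more from day 11, with 723 genes higher (6.17%) and 954 lower (8.14%). Between days 18 and 8, 875 genes were higher (7.47%) and 1455 lower (12.4%). The late step spans 7 days and the early step 3, and both use the day 11 library. The balance of higher against lower depended on the scaling. When TPM were rescaled by the median ratio between libraries, 348 genes were higher and 269 lower at day 11 against day 8, 881 and 731 at day 18 against day 11, and 1261 and 930 at day 18 against day 8. For scale, the 2.70% of genes that differed between the LO day 18 library and its near neighbour compares with 5.26% between LO days 8 and 11. Under the same count, LO day 11 differed from the organoid libraries of 11 days by 7.99% to 9.78%, more than from LO day 8. LO day 18 differed by 14.1% from LO day 11 and by 8.48% to 11.8% from the organoid libraries of 11 to 13 days. The 2 tables may have been scaled separately, and the spread between cultures of like age was not tested.

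Most genes that differed did so between days 11 and 18 only. Of the genes kept, 588 were level at day 11 and higher at day 18, and 760 were level and then lower. A further 100 genes were higher at day 11 and then level, and 196 were lower and then level. Genes higher at both steps numbered 63 and genes lower at both 65. Another 129 were higher at day 11 and lower again at day 18, and 72 were lower and then higher. These turning genes rest on the day 11 library in both steps, and many are not protein-coding or are of low level. With protein-coding genes alone, 51 peaked and 13 dipped at day 11. Among the 875 genes higher at day 18 than at day 8, the median gene had covered 0.22 of its log2 difference by day 11, and 177 (20.2%) had covered 0.5 or more. Among the 1455 genes lower at day 18, the median share was 0.30, and 341 (23.4%) had covered 0.5 or more.

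**Figure D1:**
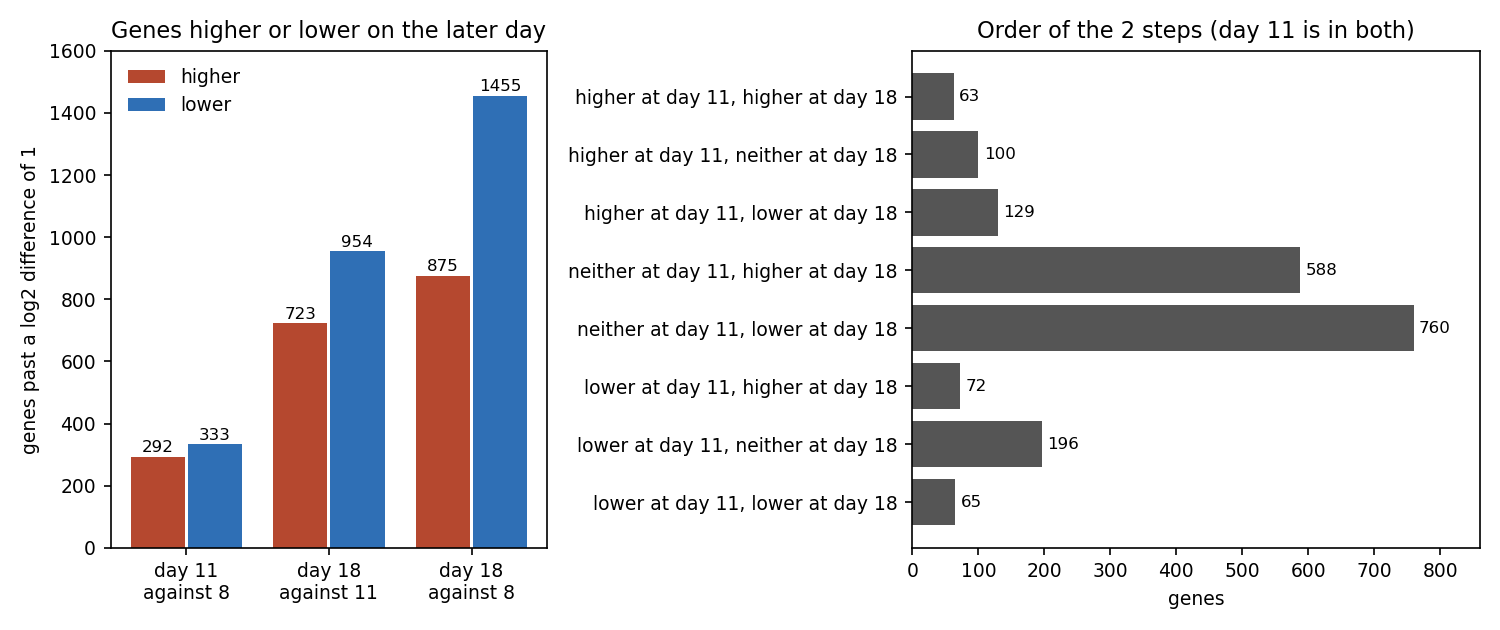
Left, number of genes higher (red) or lower (blue) by a log2(TPM + 1) difference of 1 or more on the later of 2 LO days. Right, number of genes by the calls of both steps, day 11 against day 8 and then day 18 against day 11. The late step holds most differences, with 588 genes level then higher and 760 level then lower.

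The libraries carried the RNA of lung epithelium on all 3 days. Nkx2-1, the transcription factor that marks lung epithelium, was at 289.67, 282 and 389.79 TPM on days 8, 11 and 18. Cdh1, the epithelial cadherin, was at 205.88, 239.92 and 258.73 TPM, and Foxa2, an endoderm factor, at 65.41, 52.77 and 68.78 TPM. Epcam, an epithelial adhesion molecule, was lower on day 18, at 563.78, 542.54 and 267.53 TPM. The defining markers of immune cells (Ptprc, Adgre1, Csf1r) and of endothelium (Pecam1, Cdh5, Kdr) were at 0.6 TPM or less on every day, with Adgre1 and Cdh5 at 0 throughout. Of the 10 endothelial genes, Egfl7, a secreted protein, reached 5 TPM, at 12.33, 4.07 and 6.55 TPM, and was lower by 1.39 at the early step. The 9 red cell genes summed to at most 1.31 TPM. Sox2, the factor of proximal airway, was at 0, 0 and 0.1 TPM, and no goblet cell gene of 8 reached 5 TPM. Of 16 airway and club cell genes, 6 reached 5 TPM, with Cbr2, Cldn10, Hp and Scgb1a1 doing so only on day 18. All 6 were higher on day 18 than on day 11, beside 6.17% of all genes kept, a count partly fixed by the filter. Their most abundant members, Cbr2 and Aldh1a7, metabolic enzymes, stood at 0.81, 2.25 and 123.89 TPM and at 19.46, 31.25 and 111.5 TPM, while Scgb1a1, the club cell secretoglobin, was at 0, 0 and 5.68 TPM.

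AT2 genes were higher on each later day. Of 23 listed, 22 reached 5 TPM. At day 11 against day 8, 11 were higher and none lower, beside 2.49% and 2.84% of all genes kept, with a median difference of 0.99, against −0.10 for all genes kept. At day 18 against day 11, 20 were higher and none lower, beside 6.17% and 8.14% of all genes kept, with a median of 3.66, against −0.14. Some of these, such as Chil1, Sftpd and Lyz2, reached 5 TPM only on day 18, so the filter partly fixes that count. The list's summed level was 14230, 40162 and 139778 TPM on days 8, 11 and 18.

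The surfactant proteins came in at different levels and times. Sftpc, the hydrophobic surfactant protein made only by AT2 cells in adult lung (GRCm38 chr14:70520949-70524081, minus strand), was at 12436, 36975 and 109318 TPM on days 8, 11 and 18. It ranked 4 among all genes on day 8 and 1 on days 11 and 18, and its difference was 1.57 at the early step and 1.56 at the late one. Sftpb, the other hydrophobic protein, was at 239.62, 969.73 and 7140.95 TPM. The collectins, which bind microbes, came late. Sftpa1 was at 12.65, 28.51 and 981.62 TPM. Sftpd (chr14:41172214-41185149, minus strand) was at 1.07, 1.89 and 1023.6 TPM, a difference of 0.48 at the early step and 8.47 at the late one. Thus Sftpc and Sftpb were already well above their day 8 level on day 11, while Sftpd was near the floor on both of the early days.

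Proteins that make, process and store surfactant were also higher on later days. Abca3, which loads lipid into the lamellar bodies, was at 32.46, 72.88 and 496.41 TPM. Lamp3, a protein of the lamellar body membrane, was at 1.35, 10.15 and 686.63 TPM. Napsa, a protease that processes pro-surfactant protein B, was at 1.02, 17.04 and 108.15 TPM, and Ctsh, a cathepsin with the same substrate, at 182.27, 253.4 and 1453.83 TPM. Slc34a2, the phosphate transporter of AT2 cells (chr5:53038081-53071664, plus strand), was at 1.38, 17.58 and 1135.47 TPM, and was higher at both steps, by 2.96 and 5.93. Lpcat1, an enzyme of surfactant phospholipid, dipped and then stood higher, at 199.61, 141.08 and 699.74 TPM.

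Secreted AT2 products differed mostly at the late step. Chil1, a chitinase-like protein (chr1:134182176-134190181, plus strand), was at 1.17, 2.51 and 2070.66 TPM, a late difference of 9.21. Cxcl15, a chemokine of lung epithelium, was at 27.97, 60.49 and 4439.43 TPM. Lyz1, a lysozyme (chr10:117287797-117292868, minus strand), was at 0.54, 7.99 and 1253.26 TPM and its near copy Lyz2 at 0, 0 and 45.56 TPM. Since those genes are close paralogs, how reads were divided between them is uncertain. Lyz2 is also a macrophage gene, but C1qa, C1qb, C1qc, Adgre1 and Tyrobp were at 0 on all days. Only Etv5 and Egfl6 of the list differed by less than a log2 of 1 at each comparison, at 341.67, 350.92 and 259.36 TPM and at 476.54, 569.18 and 582.06 TPM.

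**Figure D2:**
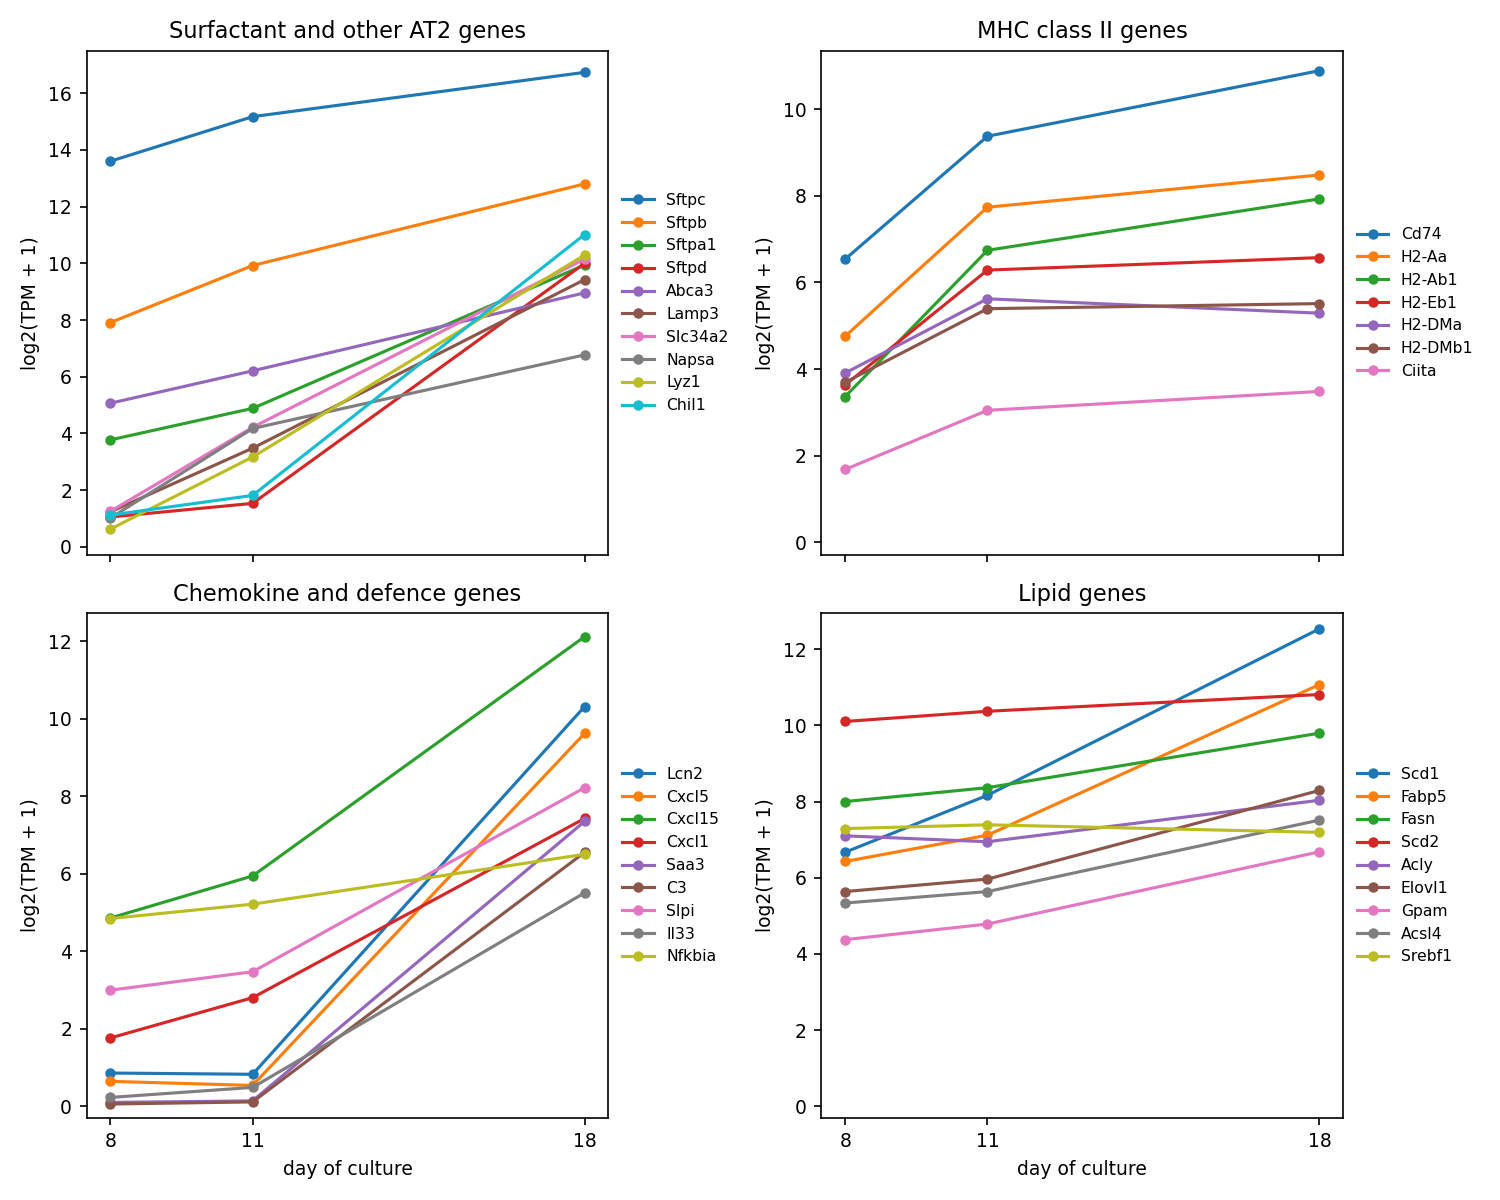
Level in log2(TPM + 1) of 4 groups of genes on culture days 8, 11 and 18, with 1 library a day and 1 line a gene. MHC class II genes took their larger step by day 11, and chemokine and defence genes stayed near their day 8 level until day 11 and stood higher at day 18.

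AT1 genes were higher on day 18 too, by less. All 20 reached 5 TPM. At the early step 1 was higher and 1 lower, beside 2.49% and 2.84% of all genes kept. At the late step 8 were higher and none lower, beside 6.17% and 8.14%. Clic5 and Spock2 among them reached 5 TPM only on day 18, so the filter partly fixes that count. The list's medians were 0.32 and 0.68. Ager, a receptor of the AT1 basal membrane, was at 225.49, 426.55 and 899.66 TPM. Hopx, a nuclear cofactor, was at 49.04, 112.08 and 190.79 TPM, and Aqp5, a water channel, at 2.94, 5.45 and 80.28 TPM. Pdpn (podoplanin) dipped on day 11, at 5.73, 2.98 and 17.8 TPM, and Igfbp2 was the listed gene that was lower at the early step, at 9.38, 3.5 and 5.07 TPM. Among 13 transitional alveolar genes, none differed early, and 2 were higher and 1 lower late, beside 6.17% and 8.14% of all genes kept. Of the higher genes, Gdf15 reached 5 TPM only on day 18. The medians for that state were 0.05 and 0.06. Krt8, its best known keratin, was at 246.09, 254.69 and 222.44 TPM.

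Among 14 transcription and lineage genes of lung epithelium, 1 was higher at the early step, beside 2.49% of all genes kept. At the late step 5 were higher and 1, Epcam, lower, beside 6.17% and 8.14%. Tfcp2l1 and Cebpd among the higher reached 5 TPM only on day 18, so the filter partly fixes that count. After median-ratio rescaling no gene of the list was lower. Cebpa, a factor of AT2 maturation, was at 23.38, 29.85 and 207.69 TPM. Elf5, an ETS factor, was the listed gene already higher at day 11, at 5.05, 15.25 and 130.11 TPM. Its relative Ehf was at 8.26, 16.98 and 79.6 TPM, and Tfcp2l1 at 1.2, 1.01 and 28.45 TPM.

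Lipid synthesis genes were higher late. Of 19, 16 reached 5 TPM, with 1 higher at the early step, beside 2.49% of all genes kept. At the late step 8 were higher and none lower, beside 6.17% and 8.14%, and the medians were 0.28 and 0.93. Scd1, which makes monounsaturated fatty acids, was at 100.93, 285.95 and 5924.93 TPM, and was the gene that was higher at both steps. Fabp5, a fatty acid carrier, was at 85.1, 137.88 and 2148.52 TPM, and Fasn, the fatty acid synthase, at 255.15, 328.66 and 887.57 TPM. Srebf1, a regulator of these enzymes, was at 155.65, 166.78 and 145.28 TPM, less than a log2 of 1 apart. Cholesterol synthesis genes dipped slightly and then stood higher, with medians of −0.27 and 0.65 over 20 genes. Of them 4 were higher by a log2 of 1 at the late step, beside 6.17% of all genes kept. Hmgcs1, an early enzyme of that path, was at 164.48, 105.56 and 223.83 TPM.

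Ion transport genes were higher as well, with medians of 0.46 and 1.47 over 15 genes. At the early step 3 were higher, beside 2.49% of all genes kept. At the late step 8 were higher and 1 lower, beside 6.17% and 8.14%. Slc26a4 and Kcnj15 among the higher reached 5 TPM only on day 18, so the filter partly fixes that count. Cftr, the chloride channel, was at 4.99, 5.18 and 52.37 TPM, Slc26a9, another chloride carrier, at 15.67, 32.71 and 109.89 TPM, and Slc26a4 at 0, 0 and 36.24 TPM. The gene that was lower was Aqp4, a water channel, at 7.01, 4.46 and 0.61 TPM.

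MHC class II genes took their larger step between days 8 and 11. Cd74, the invariant chain that escorts class II molecules, was at 91.98, 663.88 and 1898.22 TPM on days 8, 11 and 18. H2-Aa, the alpha chain of I-A (chr17:34282744-34287823, minus strand), was at 26.06, 212.47 and 356.92 TPM, and H2-Ab1, its beta chain (chr17:34257689-34269419, plus strand), at 9.3, 106.14 and 243.1 TPM. H2-Eb1, the beta chain of I-E, was at 11.41, 77.04 and 94.28 TPM. The peptide editors H2-DMa and H2-DMb1 were at 14.02, 48.29 and 38.15 TPM and at 11.95, 41.07 and 44.64 TPM. Ciita, the coactivator that switches class II genes on, was at 2.21, 7.27 and 10.19 TPM. All 7 were higher by more than a log2 of 1 at the early step, and Cd74 and H2-Ab1 passed it again at the late step, by 1.51 and 1.19. At the early step class I genes differed less than these: H2-K1 was at 117.66, 198.17 and 480.98 TPM, H2-D1 at 50.07, 108.1 and 261.12 TPM and B2m at 188.05, 234.21 and 294.67 TPM. H2-D1 passed a log2 of 1 at both steps, by 1.10 and 1.26, and H2-K1 at the late step, by 1.27. Of the 15 antigen presentation genes at 5 TPM or more, 9 were higher and none lower at the early step. All genes kept gave 2.49% and 2.84%, and the list's median was 1.10. At the late step 5 were higher and none lower, beside 6.17% and 8.14%, with a median of 0.67. Of the 11 higher at day 18 than at day 8, 8 (72.7%) had covered 0.5 or more of the log2 difference by day 11, against 20.2% of all genes higher at day 18. The H2 genes are close paralogs, so reads may be divided between them with error. Interferon response genes, which often move with antigen presentation, were mostly low, and 7 of 20 reached 5 TPM. At day 11, beside 2.49% of all genes kept, 1 of these was higher. That gene, Ifit3, was at 0.96, 4.26 and 14.13 TPM.

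Promoters of class II genes carry a conserved Y box, bound by NF-Y next to the sites that Ciita works through, and the 2 class II promoters that hold the exact letters CTGATTGG are shown because the antigen presentation list had a larger median at the early step than at the late one. They are from RefSeq (GRCm38.p6), run from 250 bases before to 50 bases after the gene start, and are written 5′ to 3′ on the gene's strand with the Y box in capitals. H2-Aa lies at chr17:34287774-34288073 on the minus strand and H2-Eb1 at chr17:34305617-34305916 on the plus strand.
H2-Aa: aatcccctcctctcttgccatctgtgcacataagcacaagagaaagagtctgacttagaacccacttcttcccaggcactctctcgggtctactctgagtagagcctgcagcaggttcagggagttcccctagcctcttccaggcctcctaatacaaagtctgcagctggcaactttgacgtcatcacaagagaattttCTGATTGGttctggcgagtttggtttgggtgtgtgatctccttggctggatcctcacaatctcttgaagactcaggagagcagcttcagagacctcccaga
H2-Eb1: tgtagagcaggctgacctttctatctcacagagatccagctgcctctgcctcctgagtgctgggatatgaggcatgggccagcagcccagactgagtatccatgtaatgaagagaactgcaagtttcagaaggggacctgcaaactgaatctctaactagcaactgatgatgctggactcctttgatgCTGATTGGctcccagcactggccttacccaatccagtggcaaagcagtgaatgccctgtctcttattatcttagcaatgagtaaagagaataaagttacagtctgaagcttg
The Y box begins 51 bases before the start in H2-Aa and 62 bases before it in H2-Eb1. Of 6 class II genes searched on both strands, 4 had a promoter in the table and 2 of these held the letters, against 4.10% of 32851 promoters. The match is of letters only.

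Chemokine and defence genes had the opposite order: near their day 8 level on day 11 and far above it on day 18. Of 22 chemokine and cytokine genes, 11 reached 5 TPM, 2 were higher at the early step, and 10 were higher and none lower at the late step, with medians of 0.33 and 4.00. Of 19 mucosal defence and complement genes, 10 reached 5 TPM, 1 was higher early, and 8 were higher and 1 lower late, with medians of 0.05 and 4.79. All genes kept gave 2.49% higher early, and 6.17% higher and 8.14% lower late. None of the 18 genes of these 2 lists that were higher at day 18 than at day 8 had covered 0.5 of its difference by day 11. Many of them passed the filter only through their day 18 value, so the count is a description.

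Lcn2, a siderophore-binding protein that starves bacteria of iron (chr2:32384633-32388252, minus strand), was at 0.81, 0.77 and 1271.22 TPM. Cxcl5, a neutrophil attractant (chr5:90759360-90761624, plus strand), was at 0.56, 0.45 and 786.16 TPM. Saa3, an acute phase protein, was at 0.07, 0.1 and 162.22 TPM, and C3, the central complement component, at 0.04, 0.08 and 92.73 TPM. All 4 were close to 0 on both early days. Slpi, an antiprotease, was higher from the start, at 6.97, 10.08 and 297.09 TPM. Pigr, which carries IgA across epithelium, was at 0.05, 0.34 and 37.32 TPM, and Cfb, a complement factor, at 1.08, 0.83 and 23.56 TPM. Cfi, the complement factor I protease, went the other way, at 39.99, 28.17 and 13.45 TPM. Ly6i, a small membrane-anchored protein of a family of close copies, was at 0, 0.39 and 195.22 TPM.

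The other neutrophil attractants followed the same course at lower levels. Cxcl1 was at 2.39, 5.97 and 170.88 TPM, Cxcl2 at 0.21, 0.61 and 24.84 TPM and Cxcl3 at 0.23, 0.23 and 47.16 TPM. The cytokine Il33 was at 0.17, 0.4 and 44.45 TPM and Csf2 at 7.31, 8.22 and 51.77 TPM. The feedback inhibitors of NF-kappaB were higher too, with Nfkbia at 27.69, 36.11 and 89.55 TPM and Tnfaip3 at 3.6, 5.31 and 27.43 TPM. Il1b, Il6 and Tnf stayed at 1.15 TPM or less on every day. S100a8, S100a9 and Itgam, genes of neutrophils, were at 0 on all days.

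The promoters of Cxcl1 and Cxcl2 are shown because both hold the same kappaB motif, the site of NF-kappaB, close to the start. They are from RefSeq (GRCm38.p6), at chr5:90890995-90891294 and chr5:90903649-90903948, both on the plus strand, with the motif in capitals.
Cxcl1: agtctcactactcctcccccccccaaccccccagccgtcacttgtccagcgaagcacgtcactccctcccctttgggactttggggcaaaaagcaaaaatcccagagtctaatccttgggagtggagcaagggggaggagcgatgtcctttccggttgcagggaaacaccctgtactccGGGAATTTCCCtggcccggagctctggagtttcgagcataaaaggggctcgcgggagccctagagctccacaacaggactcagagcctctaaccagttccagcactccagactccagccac
Cxcl2: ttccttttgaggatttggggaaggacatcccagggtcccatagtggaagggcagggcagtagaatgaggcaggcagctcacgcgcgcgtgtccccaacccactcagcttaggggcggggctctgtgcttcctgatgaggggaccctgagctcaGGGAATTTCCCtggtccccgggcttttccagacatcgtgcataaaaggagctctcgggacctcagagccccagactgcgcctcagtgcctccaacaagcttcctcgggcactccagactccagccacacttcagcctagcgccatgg
The capitals cover 2 overlapping matches, at 71 and 70 bases before the start in Cxcl1 and at 97 and 96 bases before it in Cxcl2. The letters searched were GGGRNNYYCC on both strands, where R is A or G, Y is C or T and N is any base. Of 12 genes searched, 10 were in the table and 5 held a match (Cxcl1, Cxcl2, Cxcl3, Nfkbia and Tnfaip3). The defence genes Lcn2, Saa3, C3, Slpi and Pigr were in the table and held none. Of the 32851 promoters searched, 8.46% held one. This too is a description of letters.

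Imprinted genes were lower, H19 and Igf2 by more than any other gene kept between days 18 and 8. Of 18, 17 reached 5 TPM. At day 11 against day 8, 4 were lower and none higher, beside 2.84% and 2.49% of all genes kept, with a median of −0.50. At day 18 against day 11, 12 were lower and 1 higher, beside 8.14% and 6.17%, with a median of −2.25. Their summed level was 7945, 4317 and 361 TPM on days 8, 11 and 18. H19, a growth-restraining noncoding RNA expressed from the maternal copy (chr7:142575529-142578143, minus strand), was at 4759.05, 2174.42 and 3.37 TPM. Its neighbour Igf2, a growth factor expressed from the paternal copy (chr7:142650766-142666816, minus strand), was at 1380.18, 630.48 and 1.6 TPM. Both were lower by 1.13 at the early step, and by 8.96 and 7.92 at the late step. Cdkn1c, a cell cycle inhibitor of the same chromosome region, had its highest value on day 11, at 299.71, 479.09 and 11.42 TPM.

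The imprinted cluster on chromosome 12 showed the same course. Meg3, a noncoding RNA expressed from the maternal copy (chr12:109541001-109571726, plus strand), was at 195.52, 65.86 and 1.06 TPM. Rian, next to it (chr12:109603940-109661716, plus strand), was at 154.06, 51.71 and 0.35 TPM, and Dlk1, the paternally expressed Notch-like protein of that cluster, at 146.99, 114.01 and 3 TPM. Grb10, an adaptor that restrains insulin signalling, was at 741.67, 565.82 and 118.49 TPM. Peg3 and Zim1, neighbours on chromosome 7, were at 128.88, 69.25 and 7.96 TPM and at 18.48, 6.58 and 0.02 TPM. Nnat was the listed gene that was higher at the late step, at 92.42, 60.47 and 143.62 TPM. Sgce was level, at 15.45, 19.1 and 17.72 TPM. Igf2bp1 and Igf2bp3, RNA-binding proteins of fetal tissue, were at 12.71, 7.64 and 0.45 TPM and at 27.26, 15.97 and 1.57 TPM.

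Some secreted proteins were lower as well. Mdk, the growth factor midkine, was at 549.87, 371.46 and 11.96 TPM, and Fmod, a matrix proteoglycan, at 163.82, 91.78 and 1.39 TPM. Cym, the stomach protease chymosin, was lower at both steps, at 560.01, 95.32 and 7.24 TPM.

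Distal tip genes divided. Of 20, 17 reached 5 TPM, and 1 was higher and none lower at the early step, beside 2.49% and 2.84% of all genes kept. At the late step 1 was higher and 7 lower, beside 6.17% and 8.14%, and the medians were −0.23 and −0.46. Sox9, the factor of distal tips, was at 83.92, 64.83 and 49.75 TPM, Id2 at 461.85, 623.57 and 453 TPM, and Fgfr2, the receptor for FGF10, at 314.68, 304.57 and 397.08 TPM, none past a log2 of 1. Wnt7b, a WNT ligand of lung epithelium, was at 112.2, 74.67 and 7.28 TPM, and Foxp2, a forkhead factor, at 68.06, 44.78 and 15.09 TPM. Hmga2, a chromatin protein of embryonic cells, was at 31.26, 17.39 and 6.92 TPM. Clu, a secreted chaperone, was the listed gene higher at day 11, at 4248.5, 9448.78 and 1557.69 TPM, and was lower at day 18. Cpm, a carboxypeptidase, was higher late, at 13.03, 11.51 and 45.91 TPM.

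WNT response genes were mostly lower, with 10 of 13 lower and 1 higher at day 18 than at day 8. All genes kept gave 12.4% and 7.47%. After median-ratio rescaling, 6 WNT response genes were lower and 1 higher. Axin2, the usual readout, was at 40.34, 31.71 and 19.69 TPM, Lef1 at 6.91, 3.82 and 1.91 TPM, and Lgr5 at 6.31, 3.34 and 1.91 TPM, while Sp5 stood apart at 8.44, 6.45 and 32.13 TPM. Of 6 Notch genes at 5 TPM or more, 4 were lower between days 18 and 8, beside 12.4% of all genes kept. Notch1 was at 21.33, 14.48 and 7.06 TPM, Notch3 at 18.17, 9.97 and 2.94 TPM, and Lfng at 13.43, 8.95 and 2.04 TPM. The other lower gene, Dlk1, is also counted as imprinted. Hes1 and Notch2 were level, at 51.21, 62.43 and 52.65 TPM and at 13.48, 13.14 and 16.53 TPM. FGF response genes went both ways, with a median of −0.10 between days 18 and 8 that became 0.17 after median-ratio rescaling. BMP and TGF-beta genes had medians of 0.43 and −0.79. Of 13, 1 was higher and none lower early, beside 2.49% and 2.84% of all genes kept. Late, 1 was higher and 5 lower, beside 6.17% and 8.14%. Smad7, an inhibitor that BMP and TGF-beta signals induce, was at 30.11, 54.47 and 19.37 TPM and Smad6 at 33.81, 50.33 and 16.36 TPM. Tgfb1, the gene higher at both steps, was at 4.96, 11.2 and 38.18 TPM. YAP target genes were level, with none past a log2 of 1 at either step.

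Replication and mitosis genes were lower by smaller amounts. All 30 reached 5 TPM, and none was higher on a later day by a log2 of 1. At the early step 1 was lower, the cyclin gene Ccnd1, at 66.51, 29.61 and 18.6 TPM. At the late step 17 were lower, and 26 were lower between days 18 and 8, or 16 after median-ratio rescaling. Of all genes kept, 2.84%, 8.14% and 12.4% were lower in those comparisons. The list's medians were −0.31 and −1.04. Mki67, a marker of cycling cells, was at 54.46, 42.6 and 22.49 TPM, and Pcna, the replication clamp, at 196.53, 155.51 and 85.72 TPM. Mcm6, part of the replication helicase (chr1:128331590-128359664, minus strand), was at 128.05, 116.16 and 40 TPM, and Mcm5 at 66.77, 49.08 and 24.71 TPM. Ccnd2 had the largest difference of the list, at 61.02, 35.13 and 7.09 TPM. In such bulk libraries, fewer cells of a kind and less RNA per cell cannot be told apart.

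The promoters of Mcm5 and Mcm6 are shown for the E2F site, the motif through which replication genes are known to be switched on at the start of DNA synthesis. The letters searched were TTTCCCGC and TTTGGCGC on both strands, and matches are in capitals. The sequences are from RefSeq (GRCm38.p6), Mcm5 at chr8:75109259-75109558 on the plus strand and Mcm6 at chr1:128359656-128359955 on the minus strand.
Mcm5: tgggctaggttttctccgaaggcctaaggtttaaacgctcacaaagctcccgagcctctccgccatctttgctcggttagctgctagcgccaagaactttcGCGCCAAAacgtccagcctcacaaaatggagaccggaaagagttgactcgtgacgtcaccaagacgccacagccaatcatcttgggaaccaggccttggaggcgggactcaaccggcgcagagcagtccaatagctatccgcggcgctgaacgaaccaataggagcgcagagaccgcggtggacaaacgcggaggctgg
Mcm6: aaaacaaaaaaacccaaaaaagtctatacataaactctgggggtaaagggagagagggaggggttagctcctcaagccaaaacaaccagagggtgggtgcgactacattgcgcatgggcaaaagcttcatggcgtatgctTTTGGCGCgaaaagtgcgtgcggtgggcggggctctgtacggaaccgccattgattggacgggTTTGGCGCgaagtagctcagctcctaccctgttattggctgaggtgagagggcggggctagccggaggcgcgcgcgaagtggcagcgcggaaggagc
Mcm5 holds 1 match, 149 bases before the start, and Mcm6 holds 2, at 110 and 47 bases before it. Of the 6 Mcm genes, 5 were in the table and 4 (Mcm3, Mcm5, Mcm6 and Mcm7) held a match. Of the 32851 promoters searched, 1.56% held one.

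**Figure D3:**
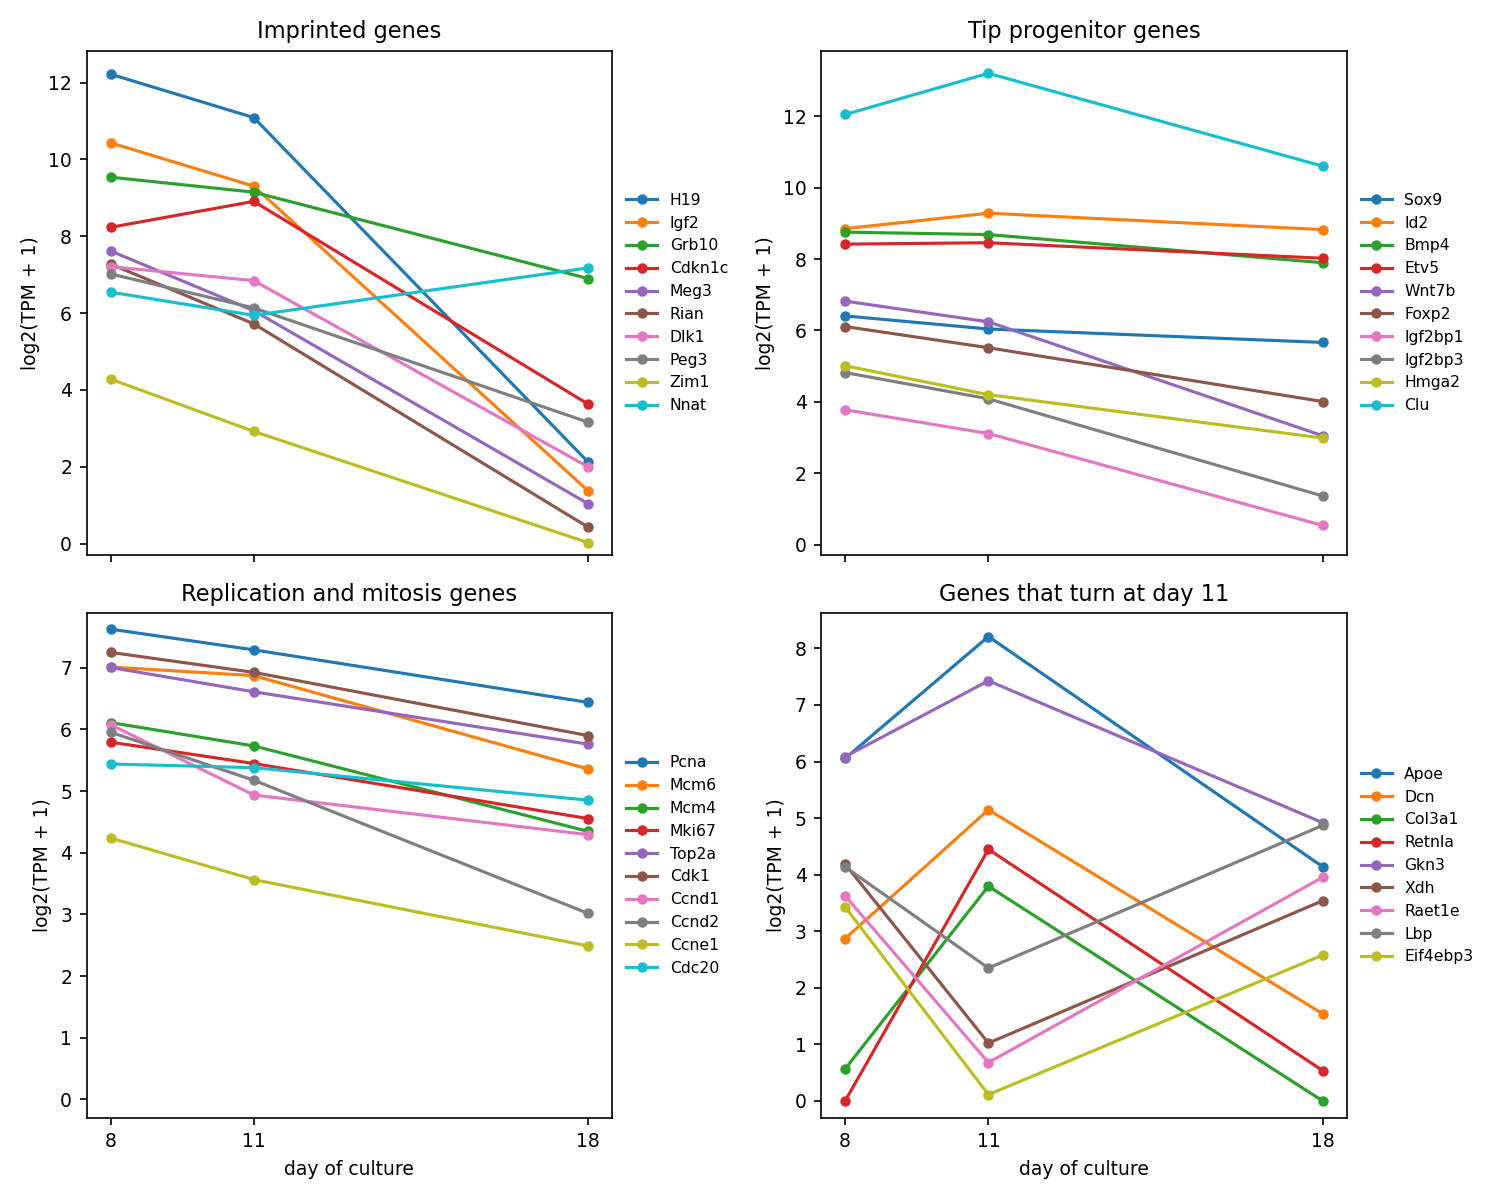
Level in log2(TPM + 1) of 4 groups of genes on culture days 8, 11 and 18, with 1 library a day and 1 line a gene. The imprinted genes drawn, other than Nnat, ended below their day 8 level, replication genes were lower by smaller amounts, and the last panel holds genes with a high or a low at day 11.

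Matrix genes split by chain. Of 26 basement membrane and matrix genes, 21 reached 5 TPM. At the late step 7 were lower and none higher, beside 8.14% and 6.17% of all genes kept. Lama1, the laminin alpha chain of early basement membrane, was at 17.15, 15.52 and 0.3 TPM, Lamb1 at 122.15, 67.37 and 13.15 TPM, and Hspg2, the proteoglycan perlecan, at 113.82, 112.82 and 28.42 TPM. Fn1, fibronectin, was at 74.3, 29.69 and 16.84 TPM. Col4a1 and Lamb3 were on the other side, at 114.77, 141.78 and 210.54 TPM and at 90.97, 115.6 and 172.66 TPM, and Timp3, a protease inhibitor of the matrix, at 46.22, 82.16 and 132.48 TPM.

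Day 11 was highest for a small set of genes of connective tissue. Col3a1, a fibrillar collagen (chr1:45311538-45349706, plus strand), was at 0.48, 12.89 and 0 TPM. Dcn, the proteoglycan decorin, was at 6.31, 34.43 and 1.91 TPM, Col1a2 at 1.77, 9.24 and 0.67 TPM, and Eln, elastin, at 1.02, 8.49 and 0 TPM. Over the whole list of 16 mesenchymal genes, the summed level was 49.3, 98.6 and 19.2 TPM. Of these, 5 reached 5 TPM, Col3a1 and Col1a2 only on day 11, so the filter partly fixes the next count. On day 11, 4 of the 5 were higher than on day 8, beside 2.49% of all genes kept. Pdgfra and Tcf21, which define lung fibroblasts, were at 0.03 TPM or less on every day. Vim, the filament protein vimentin and the most abundant gene of the list on days 8 and 18, went the other way, at 30.02, 18.96 and 12.98 TPM. Whether these cells or this RNA have a part in the other day 11 differences was not tested. Apoe, a lipid carrier, peaked as well, at 65.51, 295.1 and 16.64 TPM, as did Retnla, a secreted resistin-like protein, at 0, 20.82 and 0.45 TPM. The stomach gene Gkn3 was at 66.94, 171.12 and 29.26 TPM.

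Fewer long genes dipped on day 11. Xdh, an enzyme of purine breakdown, was at 17.2, 1.03 and 10.62 TPM. Raet1e, a stress ligand with close copies, was at 11.33, 0.6 and 14.47 TPM, Lbp, which binds bacterial lipopolysaccharide, at 16.57, 4.09 and 28.24 TPM, and Eif4ebp3, a translation repressor, at 9.76, 0.08 and 4.97 TPM. Short RNAs made up part of what differed at the early step, and their number among the turning genes was not counted. Of 246 kept genes under 200 nt, 55 were higher and 73 lower at day 11 against day 8, most of them at 0 in a library. Mirlet7e, for example, was at 0, 168.47 and 0 TPM and Snord16a at 135.7, 0 and 0 TPM. Their TPM is divided by a very short length, and the number of reads behind it is not known.

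Among genes higher at both steps, besides Slc34a2, Lamp3, Napsa and Lyz1, were Trf, the iron carrier transferrin, at 2.67, 18.49 and 849.19 TPM, and Slc2a3, a glucose transporter, at 4.09, 23.31 and 116.42 TPM. Genes lower at both steps included Fscn1, an actin-bundling protein, at 20.8, 3.63 and 0.19 TPM, Mfap2, a microfibril protein, at 46.57, 12.65 and 0.21 TPM, and Hif3a, at 19.04, 3.92 and 0.27 TPM.

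Several lists had medians near 0. The median difference between days 18 and 8 was −0.03 for 14 unfolded protein response genes, 0.03 for 15 ATF4 and amino acid stress genes, 0.01 for 13 heat shock and immediate early genes and −0.04 for 19 glycolysis and hypoxia genes, against −0.26 for all genes kept. After median-ratio rescaling the medians were 0.23 for the unfolded protein response, 0.30 for ATF4 and amino acid stress, 0.28 for heat shock and immediate early genes and 0.22 for glycolysis and hypoxia. Hspa5, the main chaperone of the endoplasmic reticulum, was at 401.25, 445.17 and 381.93 TPM, and Atf4 at 141.64, 135.66 and 144.49 TPM. Within the immediate early list, Egr1 was an exception, at 155.77, 131.32 and 16.26 TPM.

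**Figure D4:**
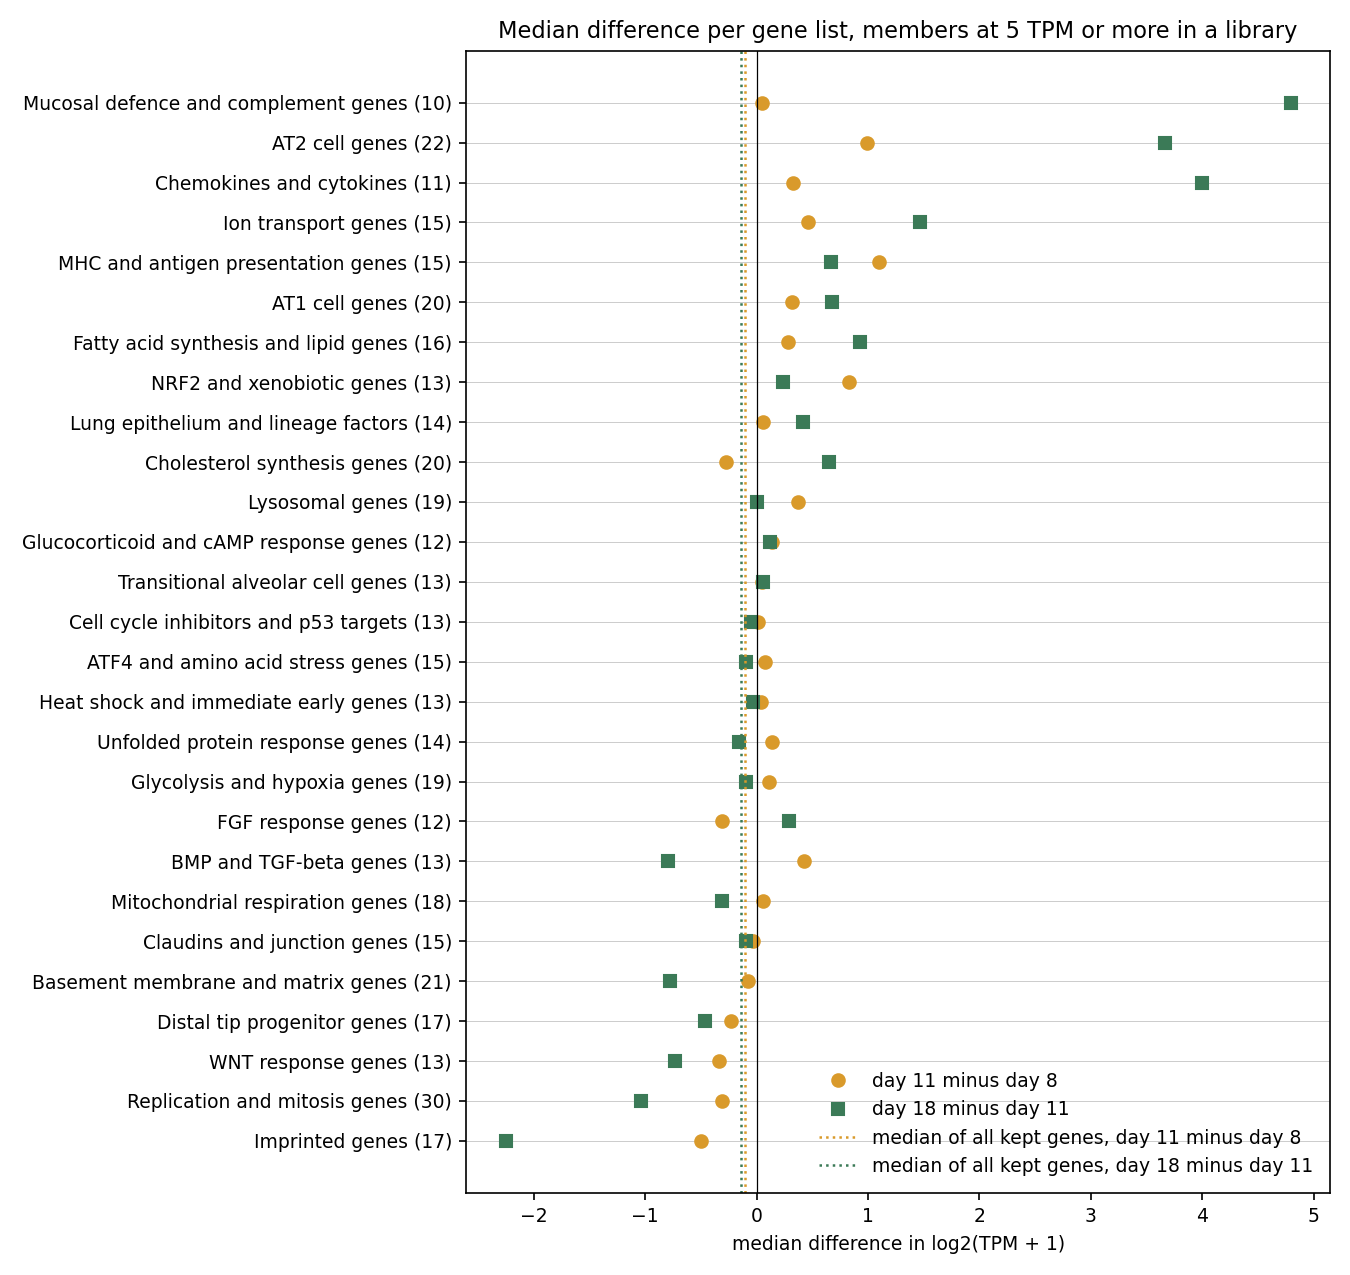
Median difference in log2(TPM + 1) per gene list for day 11 minus day 8 (circles) and day 18 minus day 11 (squares), for lists with 10 or more members at 5 TPM or more in a library (number in brackets). Dotted lines mark the medians of all genes kept, −0.10 and −0.14. The antigen presentation list is further right at the early step (1.10) than at the late step (0.67), and the AT2 list has 0.99 and 3.66.

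The 10 organoid libraries of the other table allow a test of culture time, organoids of 18 to 32 days against 11 to 13 days, with start stage as a covariate (limma on log2(TPM + 1), two-sided, Benjamini-Hochberg over all genes). Of 15385 genes tested, 350 were higher (2.27%) and 871 lower (5.66%) at an adjusted p under 0.05. Without the E10.5 library of 18 days, 292 of 15247 were higher (1.92%) and 578 lower (3.79%). After median-ratio rescaling of all 10, the split became 497 higher and 301 lower. Nothing in the labels says that these libraries came from separate litters, so p-values measure the spread between these libraries.

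The genes that differed late in LO were read in that fit. Of the 723 genes higher in LO at day 18 than at day 11, 679 were tested, and 179 (26.4%) were higher and 2 lower in the older organoids. Without the E10.5 library of 18 days, 133 of 678 were higher (19.6%) and 5 lower. Of the 954 lower in LO at day 18, 891 were tested, and 215 (24.1%) were lower and 3 higher, or 165 (18.6%) and 3 of 887 without that library. For the early LO step the shares were smaller: 34 of 255 (13.3%) of the genes higher at day 11 were higher in the older organoids, and 32 of 269 (11.9%) of those lower at day 11 were lower. Without the E10.5 library of 18 days these were 25 of 250 (10.0%) and 24 of 267 (8.99%). With start stage as a factor, the late LO shares were 12.8% for the genes higher at day 18 and 9.32% for those lower. Without the E13.5 library of 11 days, 114 of 677 genes higher late in LO were higher in the older organoids.

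AT2 genes differed among themselves in these organoids. Sftpd averaged 806 ± 304 TPM in organoids of 18 to 32 days and 53.3 ± 46.6 TPM in those of 11 to 13 days (SD, n = 5 each). Its difference was 4.30 ± 0.55 (SE; limma adjusted p = 0.0030), and 4.22 ± 0.64 without the E10.5 library of 18 days (adjusted p = 0.012). Lyz1 averaged 2266 ± 1740 TPM in the older and 124 ± 112 TPM in the younger organoids (limma adjusted p = 0.0034, and 0.0065 without that library). Sftpc and Slc34a2, in contrast, were already high in the younger organoids. Sftpc was at 67018 to 124839 TPM (median 86787) in the older organoids and at 49076 to 92436 TPM (median 74794) in the younger, with overlap (limma adjusted p = 0.52). Slc34a2 averaged 789 ± 259 TPM in the older and 582 ± 165 TPM in the younger organoids, with a limma adjusted p of 0.36. All 5 younger organoids were above the 17.58 TPM of LO day 11, the lowest being 314.9 TPM, a comparison of levels across tables that may have been scaled separately. Over the AT2 list, 6 of 22 genes were higher and none lower, beside 2.27% and 5.66% of all genes tested. The median was 0.70, against −0.16 over all genes tested. Without the E10.5 library of 18 days, 5 were higher and 2 lower, beside 1.92% and 3.79%.

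MHC class II genes were higher in the older organoids. Cd74 averaged 1360 ± 442 TPM in organoids of 18 to 32 days and 150 ± 95.8 TPM in those of 11 to 13 days, a difference of 3.45 ± 0.52 (SE; limma adjusted p = 0.0062, and 0.019 without the E10.5 library of 18 days). H2-Ab1 was at 69.63 to 248.9 TPM in the older and at 1.34 to 16.2 TPM in the younger organoids, a difference of 4.28 ± 0.60 (limma adjusted p = 0.0045, and 0.015). On day 11, LO had 106.14 TPM, above every younger organoid, again across tables. Of the 17 antigen presentation genes, 15 were higher and none lower, beside 2.27% and 5.66% of all genes tested. Without that library 12 were higher and none lower, beside 1.92% and 3.79%.

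Chemokine and defence genes were higher in the older organoids, 11 of 17 and 8 of 13 with none lower. Of all genes tested, 2.27% were higher and 5.66% lower. Without the E10.5 library of 18 days 8 and 7 were higher, beside 1.92% of all genes tested. Lcn2 was at 348.76 to 1362.05 TPM in the older and at 4.37 to 184.56 TPM in the younger organoids, a difference of 5.02 ± 0.79 (limma adjusted p = 0.0075, and 0.021). Cxcl5 was at 127.84 to 990.3 TPM in the older and at 6.47 to 89.11 TPM in the younger (limma adjusted p = 0.014, and 0.034). With the same limit on levels across tables, the younger organoids were above LO day 11, where Lcn2 was at 0.77 TPM and Cxcl5 at 0.45 TPM.

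Imprinted genes were lower in the older organoids, 10 of 18 and none higher, beside 5.66% and 2.27% of all genes tested. Without the E10.5 library of 18 days 9 were lower, beside 3.79%. H19 was at 0 to 1.24 TPM in the older and at 10.86 to 708.55 TPM in the younger organoids, a difference of −6.00 ± 0.85 (limma adjusted p = 0.0048, and 0.016). Igf2 was at 0.24 to 1.29 TPM in the older and at 3.54 to 262.11 TPM in the younger (limma adjusted p = 0.013, and 0.033). Meg3 was at 0 to 1.04 TPM in the older and at 24.61 to 86.23 TPM in the younger, a difference of −4.90 ± 0.32 (limma adjusted p = 0.00013, and 7e-04). Mdk averaged 6.36 ± 4.41 TPM in the older and 142 ± 123 TPM in the younger organoids (limma adjusted p = 0.0087, and 0.015).

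Of 30 replication genes, 3 were lower and none higher in the fit, beside 5.66% and 2.27% of all genes tested. Their median was −0.26, against −0.16 over all genes tested. Without the E10.5 library of 18 days 1 was lower, beside 3.79% of all genes tested. These counts are too near those shares to set the list apart. Mcm6 averaged 43.4 ± 6.96 TPM in the older and 65.6 ± 6.37 TPM in the younger organoids (limma adjusted p = 0.022, and 0.053 without the E10.5 library of 18 days). Mki67 averaged 40.7 ± 14.7 TPM in the older and 41.1 ± 8.95 TPM in the younger (limma adjusted p = 0.77), and its lowest value, 19.2 TPM, was that of the E10.5 library of 18 days. Wnt7b averaged 20.5 ± 8.78 TPM in the older and 35.1 ± 10.9 TPM in the younger organoids (limma adjusted p = 0.088). Of the genes that peaked at day 11 in LO, Col3a1 ranged from 0 to 8.55 TPM in the older and from 0.44 to 146.44 TPM in the younger organoids (limma adjusted p = 0.29), and Apoe from 20.95 to 1421.62 TPM in the older and from 13.36 to 513.56 TPM in the younger (limma adjusted p = 0.98).

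**Figure D5:**
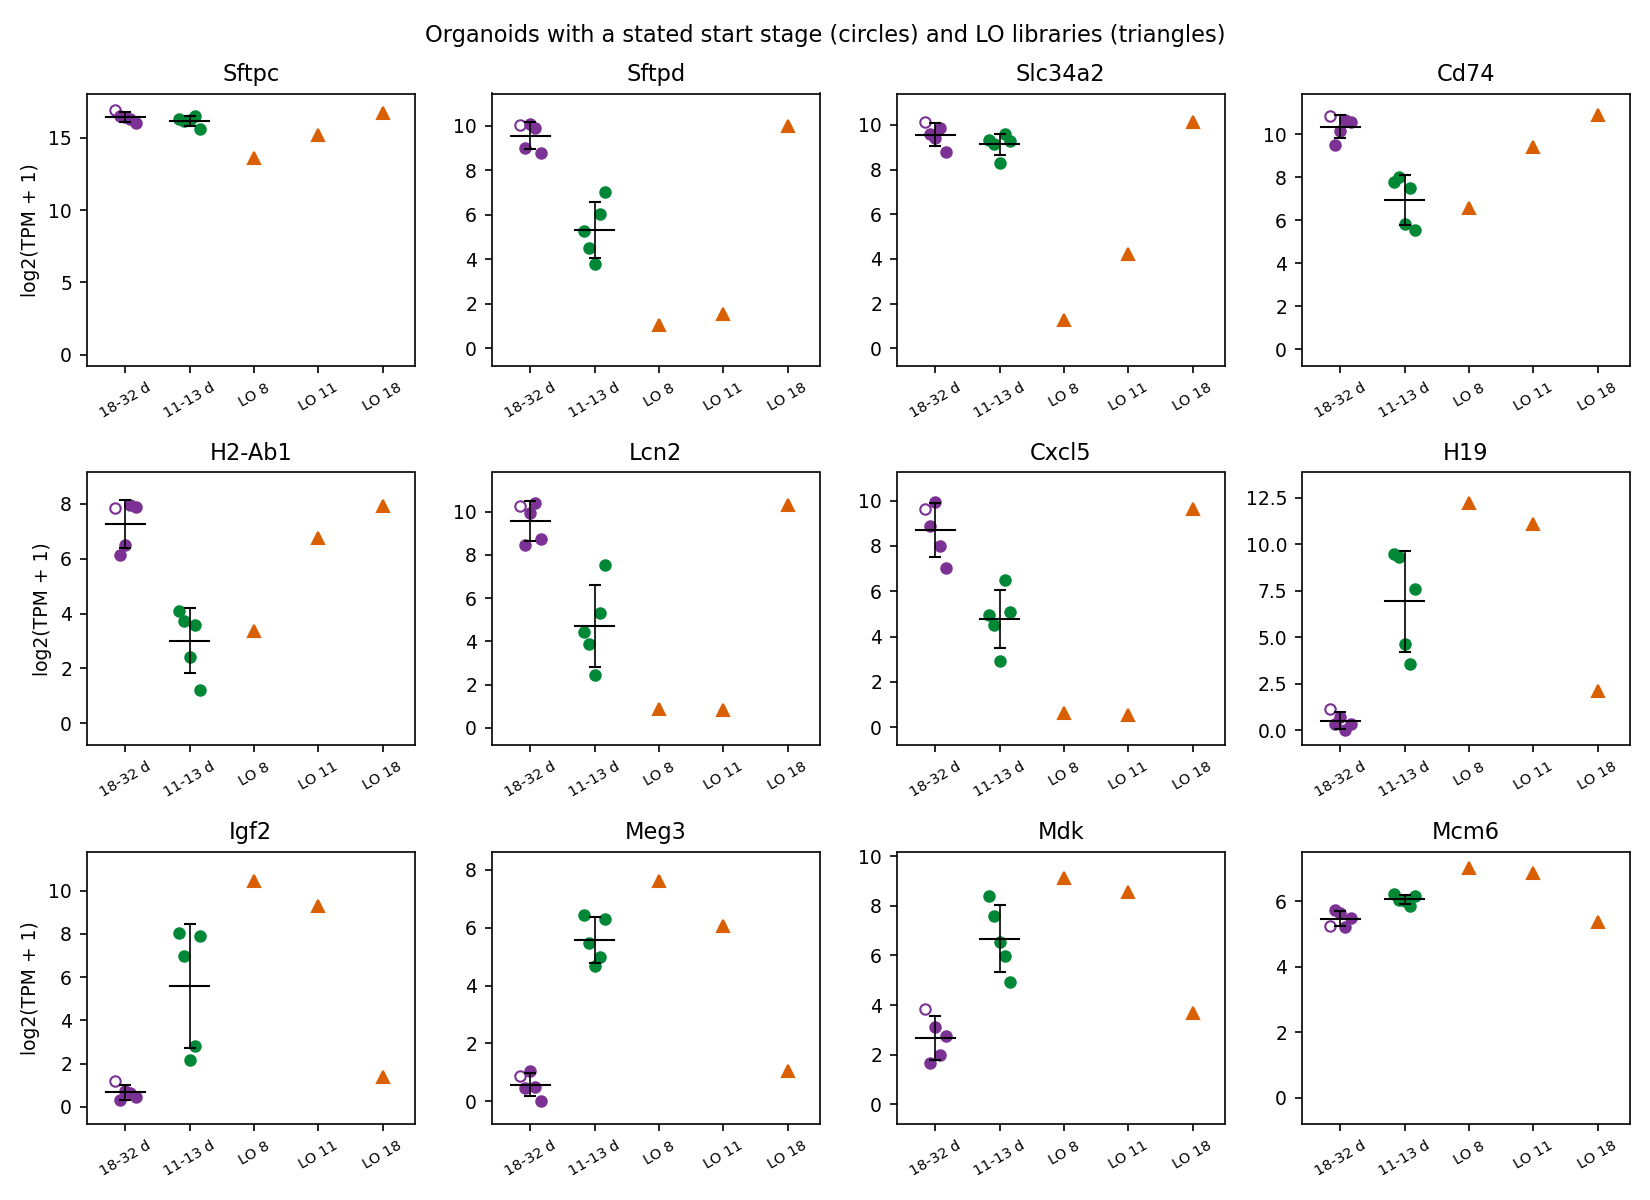
Level in log2(TPM + 1) of 12 genes in the 5 organoid libraries of 18 to 32 days (purple; open circle, E10.5 at 18 days), the 5 of 11 to 13 days (green) and the LO libraries of days 8, 11 and 18 (triangles). Bars give the mean and SD over 5 libraries, and LO has 1 library a day. The 12 genes were picked for the figure. Among them, Sftpd, Cd74, H2-Ab1, Lcn2, Cxcl5, H19, Igf2, Meg3 and Mdk show no overlap between the groups of culture time, while Sftpc and Slc34a2 overlap. How many of all genes tested show no overlap was not counted.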

How the data were processed

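RNA of organoids was taken up in TRIzol, made into libraries with a VAHTS mRNA-seq kit and sequenced on a NovaSeq X Plus, per the labels' protocols. Bowtie2, RSEM and the mouse build mm10 are named in the submitters' processing notes, with no versions; the strand setting of the counting is not given in the sources used here. The deposited values are TPM per gene, made by the authors. TPM keep no read depth, so depth is unknown and no counting interval can be given. Of 5 tables, 2 were used.

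LO differences were taken on log2(TPM + 1), over genes at 5 TPM or more in at least 1 of the 3 libraries, and a difference of 1 or more was counted. The organoid test used limma 3.58.1 (R 4.3.3; lmFit, eBayes with trend, Benjamini-Hochberg over all genes) on log2(TPM + 1) for genes at 1 TPM or more in at least 2 libraries, with start stage as a number. Tables were made with Python 3.11.15, pandas 2.3.3, numpy 2.4.6 and matplotlib 3.10.9. The LO calls and the organoid test were each run on simulated data. Those for the LO calls held no noise, so that run says nothing about calls from 1 library a day. The tables were not compared by a test, since their scaling may differ. Gene coordinates are from GENCODE M21 (GRCm38), to which 55275 of 55286 names matched; 11 names had been turned into dates. Overlapping or near-identical genes may share reads.

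The 3 libraries and the gene lists were chosen with earlier results of these data known. Named genes were, by rule, the 10 largest steps each way, 6 turning or repeated steps of each kind and up to 5 members of each list with 3 more by step; Sftpb and other list members named beyond that were chosen after their values were seen, as was leaving genes under 200 nt out of the named steps. Alternatives were other pseudocounts, filters and scalings, and leaving out each organoid library.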

Additional observations from a re-analysis of the deposited data

Results flagged for a closer look

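In the 24 genes whose organoid values are given, 48 groups of 5 libraries were looked at, and 5 times a library lay far from the other 4 of its group (gap over range above 0.71). For normally distributed values chance flags about 1 in 20 groups, a rate that need not hold for TPM. Lyz1 was at 5288.35 TPM in the organoids from E13.5 grown for 30 days, against 1129.95 to 2187.93 TPM in the others of 18 to 32 days. Lcn2 was at 184.56 TPM in the organoids from E9.5 grown for 13 days, against 4.37 to 38.19 TPM in the others of 11 to 13 days. Wnt7b was at 54.53 TPM in the organoids from E13.5 grown for 11 days, against 27.87 to 31.41 TPM in the others of that group. Col3a1 was at 8.55 TPM in the organoids from E14 grown for 24 days, against 0 to 0.32 TPM in the others of 18 to 32 days. It was also at 146.44 TPM in the organoids from E10.5 grown for 11 days, against 0.44 to 21.51 TPM in the others of 11 to 13 days.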

How the results depend on the processing

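Counts of LO genes moved with the settings. With a pseudocount of 5 TPM, 175 genes were higher and 183 lower at day 11 against day 8, 464 were lower at day 18 against day 11, and 804 lower at day 18 against day 8. The patterns over both steps then held 29 genes higher at both, 59 higher then level, 359 level then lower, 37 lower then higher, 128 lower then level and 18 lower at both. With a pseudocount of 0.1 TPM, 131 were higher at both. With a filter of 1 TPM, or with none, 617 were higher and 811 lower at the early step, 1200 and 1515 at the late step, and 1361 and 2268 between days 18 and 8; 226 were higher then level, 327 higher then lower, 991 level then higher, 145 lower then higher and 593 lower then level. With a filter of 20 TPM, these were 155 and 126, 417 and 452, and 510 and 718; the patterns held 47 higher then level, 59 higher then lower, 339 level then higher, 365 level then lower, 29 lower then higher, 69 lower then level and 28 lower at both. Median-ratio rescaling left 930 lower between days 18 and 8. Of alternatives chosen after seeing the data, protein-coding genes alone gave 163 higher and 151 lower at the early step, with 59 higher then level, 51 higher then lower, 13 lower then higher, 95 lower then level and 43 lower at both. A mean of 5 TPM or more gave 215 lower at the early step, with 83 higher then lower, 122 lower then level and 43 lower at both.

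In the organoid fit (limma, Benjamini-Hochberg), no filter gave 218 higher and 524 lower, start stage as a factor gave 112 and 123, and median-ratio rescaling gave 301 lower. Leaving out 1 library gave 191 to 320 higher and 343 to 722 lower. The higher count moved by over 1.5 times without the E10.5 library of 32 days (202), the E11.5 library of 11 days (210) or the E13.5 library of 11 days (191). The lower count did so without those (343, 449 and 448), the E10.5 libraries of 11 days (394) and 18 days (578), or the E14 library of 11 days (541). Of the genes higher late in LO, 179 were higher in the older organoids, but 118 with no filter, 114 with culture day as a slope and 87 with start stage as a factor. Of those lower late, 215 were lower, but 83 with start stage as a factor. Of those higher early, 34 were higher, but 22 with no filter and 17 with start stage as a factor. Of those lower early, 32 were lower, but 14 with start stage as a factor and 18 without the E10.5 library of 32 days. Without both the E10.5 library of 18 days and the E9.5 library of 13 days, an alternative chosen after seeing the data, 404 were lower, 140 of them among genes lower late in LO and 19 among those lower early. With the E10.5 organoid library of 18 days in place of the LO day 18 library, also chosen afterwards, 600 genes were higher and 1269 lower than at LO day 11. The causes were not tested.

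Over single genes, and counts of LO gene sets in the organoid fit, 15675 values kept their side of the threshold or, for counts, their size. Another 585 no longer passed the threshold, 221 newly passed it, 22 moved, and none reversed. The values that moved were set counts. No paired analysis was possible because LO has 1 library a day, with no replicate numbers, and the organoid libraries carry none that pair them. Without replicates, the spread between LO cultures is unknown, and without read counts so is the precision of low values.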
